A study of Rattus norvegicus with 939 samples.

Results

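Methapyrilene at 300 uM in cultured primary rat hepatocytes was examined with 12 Affymetrix arrays out of 939 in the series. The arrays were those labelled with this compound and dose at exposure times of 0.67 d and 1 d, and the DMSO control arrays whose description names the compound. Arrays extracted at or after the start of a later dose series were left out, which kept 6 treated arrays and 6 controls, 3 of each at either time. All arrays held poly A RNA from hepatocytes kept in culture with DMSO as vehicle, and the treated arrays differed from the controls in the drug and, for some arrays, in the days of RNA extraction and hybridization. The control set was shared with other compounds, among them N-Nitrosodiethylamine. The strain, sex and age of the rats are not given in the labels, and the labels do not state outright that replicates are separate cultures. The titles of the controls carry a code in the form of a date that differs between the 3 replicate numbers and is the same at both times. The main fit treated the 6 arrays of an arm as separate. Arrays that share a number deviated together from their group means in all 18 pairs (r 0.351 to 0.747), so the 6 arrays of an arm are not independent. If a replicate number stands for the same culture at both times, an arm holds 3 independent samples and not 6. The p-values below come from the fit without pairing unless a block is named. With replicate number as a block 2318 genes were called, against 2200 in the main fit. If the code does not mark separate cultures, the p-values measure only the spread between these arrays, which may be technical. Cultured hepatocytes lack the other cells of the liver lobule as organised tissue, which limits them as a model of the organ.

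Methapyrilene is an antihistamine of the ethylenediamine class that blocks the H1 receptor. It was sold as a sleep aid until it was found to cause liver tumours in rats, and in rat liver it injures hepatocytes and disturbs their mitochondria. Hepatocytes meet a toxic load with inducible programmes. In the integrated stress response, kinases that sense misfolded protein, amino acid shortage or mitochondrial trouble slow translation, and the transcription factors Atf4 and Ddit3 (CHOP) then raise genes for amino acid import and synthesis. The heat shock response raises chaperones when cytosolic proteins unfold, and Nfe2l2 (NRF2) raises genes for glutathione and for handling electrophiles.

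The promoters of 3 genes that were called higher and belong to the list of Atf4 and Ddit3 targets are printed because they carry the core motif TGATGNAA of the elements that C/EBP and ATF factors bind. Each run is 150 bases long, is written 5′ to 3′ on the strand of the gene, ends at the last base before the annotated start in RefSeq on the rat assembly GRCr8, and has the match in capitals, read on either strand.
Trib3 promoter, chr3:161275534-161275683, minus strand, match 21 to 14 bases before the start: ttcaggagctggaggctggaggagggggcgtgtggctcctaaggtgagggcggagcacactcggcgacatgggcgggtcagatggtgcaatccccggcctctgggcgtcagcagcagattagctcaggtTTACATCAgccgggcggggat
Slc7a1 promoter, chr12:11664338-11664487, plus strand, match 30 to 23 bases before the start: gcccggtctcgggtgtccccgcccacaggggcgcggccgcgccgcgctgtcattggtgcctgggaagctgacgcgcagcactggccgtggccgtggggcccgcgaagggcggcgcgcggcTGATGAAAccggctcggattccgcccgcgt
Nupr1 promoter, chr1:190645902-190646051, minus strand, match 55 to 48 bases before the start: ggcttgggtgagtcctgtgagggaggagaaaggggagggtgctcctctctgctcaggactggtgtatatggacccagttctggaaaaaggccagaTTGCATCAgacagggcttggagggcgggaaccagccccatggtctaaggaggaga

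The motif was searched on both strands in windows from 250 bases before to 50 bases after the start. It was found in 6 of the 24 list members with a single listed promoter (25%), against 2.22% of the 10947 tested genes with a single listed promoter and 3.98% of all 33469 promoters. Among the members called higher it was found in 3 of 10, and among the members not called in 3 of 13 (23.1%). The related core TTGCATCA, whose matches all fall within matches of TGATGNAA, was found in 3 of the 24 members (12.5%), against 0.612% of tested genes and 0.795% of all promoters. The core of the antioxidant response element, TGACNNNGC, was found in 6 of 24 NRF2 targets (25%), and in 14.4% of tested genes and 12.1% of all promoters. It was also found in 7 of 24 members of the Atf4 and Ddit3 list (29.2%). These matches describe the sequence only.

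Treated and control arrays lay apart on the first principal component, which held 61.9% of the variance. Treated arrays had scores from 22.5 to 38.4 and controls from -37.6 to -21.9. The second component (12.7%) ordered arrays by replicate number within each arm and time. Defining hepatocyte markers were bright, with a median percentile of 99.6 among all genes in the controls. Their mean log2 value was 12.54 to 12.76 in controls, 12.35 to 12.37 in treated arrays at 0.67 d and 12.05 to 12.14 at 1 d, without overlap. Of 9 measured hepatocyte markers Fgb (log2 change -0.78) and Cps1 (-2.25) were called lower. These genes weigh most on the mean, and the median change of the markers was -0.15. In whole cultures, fewer cells of a type and less RNA per cell cannot be told apart. Markers of other liver cells had median percentiles of 25.4 to 31.0. Their mean log2 values were 5.94 to 6.34 in controls against 5.89 to 6.22 in treated arrays for Kupffer cells, 4.90 to 6.29 against 4.82 to 6.22 for endothelial cells, 5.13 to 6.11 against 5.14 to 6.14 for stellate cells, and 5.26 to 5.48 against 5.19 to 5.46 for cholangiocytes, all overlapping. Of these markers only Cd14 (Kupffer) and Reln (stellate) were called, both lower.

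**Figure D1:**
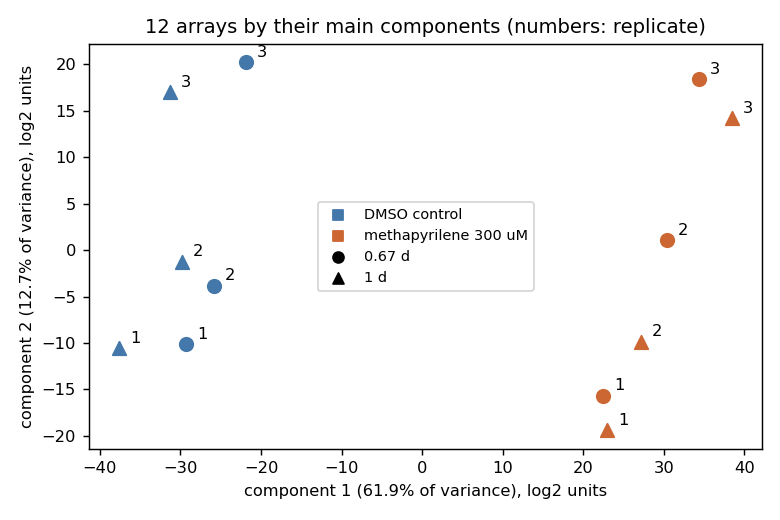
Scores of the 12 arrays on components 1 and 2 in log2 units, with colour for treatment, shape for exposure time and a number for the replicate. The 6 treated arrays sit at 22.5 or more on component 1 and the 6 controls at -21.9 or less, and component 2 runs from replicate 1 to replicate 3 within each arm and time.

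Methapyrilene changed 2200 of 14218 genes, counting as called a limma adjusted p of 0.01 or less together with a change of 1.5-fold or more, with exposure time as a factor. Of these 918 rose (6.46% of genes tested) and 1282 fell (9.02%), and 6865 genes had an unadjusted p under 0.05. The falls were larger: 536 genes fell at least 2-fold and 84 at least 4-fold, against 262 and 16 that rose as much. Every treated array lay above every control in 858 of the 918 genes that rose (93.5%, against 13.1% of all genes), and below in 1111 of the 1282 that fell (86.7%, against 13.6%). The split between rises and falls depended on the scaling. Subtracting the median of each array moved the median change of all genes from 0.01 to 0.13 on the log2 scale and gave 1346 rises and 945 falls (58.8% rises in place of 41.7%). Taken relative to those medians, 903 genes rose and 1275 fell (41.5% rises), and a renewed quantile normalization gave 1047 rises and 1118 falls (48.4%). Extraction and hybridization days were not spread evenly, and replicate 2 of the treated arrays at 1 d was extracted and hybridized on days without any methapyrilene control. Within the 2 extraction days that held both arms the 2200 genes had the direction of the call in 2200 and 2200 cases, and within the 3 such hybridization days in 2192, 2200 and 2197. These counts are a description and no independent check, since the genes were called on the same arrays and the days set arrays of different exposure times side by side.

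Counts of list members called against controls stand beside 6.46% higher and 9.02% lower over all genes. Integrated stress response genes had more calls higher than lower. Of 29 measured targets of Atf4 and Ddit3, 14 rose and 2 fell, with a median log2 change of 0.48 against 0.01 over all genes. Ddit3, the factor that links prolonged stress to cell death, had log2 values of 9.08, 9.28 and 8.82 in controls at 0.67 d and of 8.30, 8.46 and 7.90 at 1 d. The treated arrays read 10.97, 11.02 and 11.01 at 0.67 d and 10.40, 10.74 and 10.87 at 1 d. All treated arrays lay above all controls, and Ddit3 rose 4.58-fold (log2 change 2.20, SE 0.13, n = 6 and 6 arrays taken as separate, limma adjusted p = 1.28e-07).

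Gdf15, a secreted stress hormone, rose 4.20-fold, from 6.05 to 6.83 in controls to 7.78 to 9.07 in treated arrays. Ppp1r15a, the phosphatase subunit that lets translation resume, rose 3.89-fold, from 8.76 to 9.58 in controls to 10.80 to 11.74. Neither gene had overlapping arms. Atf4 itself rose by a log2 change of 0.91, Atf3 by 1.51, Sesn2, an inhibitor of growth signalling, by 1.21, and Trib3, a pseudokinase that restrains Atf4, by 0.75. Among amino acid carriers the log2 rise was 0.92 for Slc7a1, 0.88 for Slc38a2, 0.66 for Slc7a5 and 0.60 for Slc3a2. The amino acid synthesis genes of the list did not pass the test, with log2 changes of 0.24 for Asns, 0.32 for Psat1, -0.15 for Phgdh and 0.20 for Psph, although Mthfd2 of the mitochondrial folate cycle rose by 0.75. The falls were Cth, which makes cysteine from cystathionine, at -1.29 and Aldh1l2, a mitochondrial folate enzyme, at -1.04.

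Among 19 aminoacyl-tRNA synthetases, also targets of the Atf4 programme, Sars1 rose 2.19-fold and Wars1 1.73-fold and no member fell, and with array medians subtracted 4 were called higher. Of 21 endoplasmic reticulum chaperones and folding factors, Dnajb9 alone rose (2.48-fold, from 9.35 to 9.86 in controls to 10.57 to 11.24), and Ero1b, an oxidase for disulfide bonds, alone fell (to 0.453 of control), although its second probe set read -0.03. The list median was -0.04. After subtracting array medians it was 0.09, and 3 members were called higher and 1 lower. Hspa5, the main chaperone of this compartment, had a log2 change of 0.33 and was not called. Within the lists for stress in other compartments, mitochondrial chaperones and proteases had 1 call in 14 genes, Trap1 at 0.582 of control (median -0.02, or 0.11 after subtracting array medians). The 15 mitochondrial biogenesis genes had no call (median 0.19), and the log2 changes of smallest p were 0.49 for Esrra and 0.53 for Mterf3, under the 1.5-fold bound. After subtraction of array medians 4 of these 15 were called higher. Of 52 oxidative phosphorylation genes 2 fell, both complex I subunits: Ndufs3 to 0.584 and Ndufs1 to 0.626 of control, and the call of Ndufs1 was lost after that subtraction (log2 change -0.55). Without that subtraction the counts of the synthetase, chaperone and mitochondrial lists lay near or below the shares over all genes, 6.46% higher and 9.02% lower.

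Cytosolic heat shock genes rose in 6 of 16 cases with no fall and a median log2 change of 0.35. Hspa1a, the inducible Hsp70 chaperone, read 9.33, 9.89 and 8.22 in controls and 10.09, 10.86 and 11.20 in treated arrays at 0.67 d. By 1 d it read 8.88, 9.19 and 7.98 in controls and 10.12, 10.93 and 11.14 in treated arrays. The arms did not overlap but their distance was widest in replicate 3, where the controls were lowest and the treated arrays highest. The gene rose 3.50-fold (log2 change 1.81, SE 0.31, limma adjusted p = 0.00041), with changes of 0.80 to 2.98 within single hybridization days. Zfand2a, a proteasome adaptor of the heat shock response, rose 5.40-fold, from 8.85 to 10.03 in controls to 11.48 to 12.30. Hspb8, a small heat shock protein, rose 2.22-fold, and Chordc1, Dnajb1 and Bag3, co-chaperones of Hsp90 and Hsp70, rose by log2 changes of 0.79, 0.73 and 0.68.

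Of 30 measured NRF2 targets 6 rose and 2 fell (median 0.15), beside 6.46% higher and 9.02% lower over all genes. The rises were Maff, a small Maf partner of NRF2, at 3.82-fold, Slc7a11, the cystine importer, at 2.74-fold, and Osgin1, Akr1b8, Hmox1 and Abcc2. Akr7a3, an aldehyde reductase that acts on aflatoxin dialdehyde, fell to 0.434 of control, from 11.50 to 12.34 in controls to 9.98 to 11.19, and Gclc, the catalytic subunit for glutathione synthesis, fell by a log2 change of 0.59. Nqo1, a standard readout of NRF2, changed by 0.09 and was not called (limma adjusted p = 0.718). The share of falls in the list was not above that over all genes, and 22 of the 30 members had no call. Of 20 glutathione S-transferases 7 fell and none rose (median -0.56). Mgst3 fell to 0.293 of control, from 9.54 to 10.06 to 7.87 to 8.16, Gstm3 to 0.405 and Gstt3 to 0.249, although Gstt3 values overlapped between arms. With array medians subtracted 4 glutathione S-transferases were called lower and 1 higher.

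Immediate early and AP-1 factors, which answer growth and stress kinases, rose in 11 of 23 cases with no fall (median 0.42). Fosl1 read 8.46, 8.44 and 8.82 in controls and 10.55 to 11.47 in treated arrays at 0.67 d. Its values at 1 d were 7.63, 8.09 and 8.05 in controls and 10.26, 10.66 and 11.39 in treated arrays. No treated array fell to the level of a control, and the gene rose 6.24-fold (limma adjusted p = 5.86e-07). Klf4 rose 4.03-fold, Dusp5, a phosphatase that switches off ERK, by a log2 change of 1.88, Mafk by 1.47, Egr1 by 1.30 and Myc by 0.77, whereas Fos (0.19) and Jun (-0.19) were not called.

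Genes activated by p53 rose in 6 of 19 cases and fell in 1 (median 0.41). Mdm2, the ligase that degrades p53, rose 2.63-fold, from 10.06 to 10.64 in controls to 11.56 to 12.03. Aen, a nuclease, rose 2.32-fold and Bbc3, which encodes the killer protein Puma, 1.92-fold. Cdkn1a, the cell cycle inhibitor, had a log2 change of 1.05 that was not called. Of 28 replication and mitosis genes 7 rose and 1 fell (median 0.26). Pcna, the polymerase clamp and also a p53 target, rose 2.41-fold, and Aurka 1.96-fold. Ccnd1, which drives entry into the cell cycle, fell to 0.347 of control, from 8.53 to 9.54 to 6.36 to 8.34. Of 16 BCL2 family genes 4 rose and 1 fell (median -0.03, or 0.09 after subtracting array medians). The rises were Bbc3, Bcl2l1, Bid and Mcl1, the last 1.69-fold, and the fall was Bok, to 0.473 of control. The list thus held rises of protective and of killer members.

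Sterol synthesis genes rose in 8 of 20 cases and fell in 1 (median 0.44). Msmo1, a demethylating oxidase of the pathway, rose 2.73-fold from 10.33 to 10.82 in controls to 11.73 to 12.23. Insig1, the sensor that retains SREBP, rose 2.33-fold and Acat2 2.26-fold, whereas Nsdhl fell by a log2 change of 0.62. Fatty acid synthesis genes had 2 rises and 3 falls in 21 (median -0.09, or 0.04 after subtracting array medians). These counts lie near the shares over all genes, 6.46% higher and 9.02% lower. Lpin1, a phosphatidate phosphatase, rose 2.60-fold and Fasn 1.98-fold, while Elovl2 fell to 0.358 of control.

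The PPARa and fatty acid oxidation list had 15 falls and 2 rises in 34 genes (median -0.55). Vnn1, a pantetheinase, fell to 0.252 and Acot4, a peroxisomal thioesterase, to 0.309 of control, and the falls included Decr1, Eci1, Eci2, Acadvl, Acadm and Etfdh of fatty acid oxidation at log2 changes of -1.38 to -0.93. Pdk4, the kinase that closes pyruvate dehydrogenase, went the other way. It read 7.56, 7.50 and 6.82 in controls and 9.03, 9.32 and 9.75 in treated arrays at 0.67 d. Its values at 1 d were 6.77, 6.61 and 6.00 in controls and 8.80, 9.35 and 9.57 in treated arrays. The arms did not overlap and Pdk4 rose 5.38-fold.

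**Figure D2:**
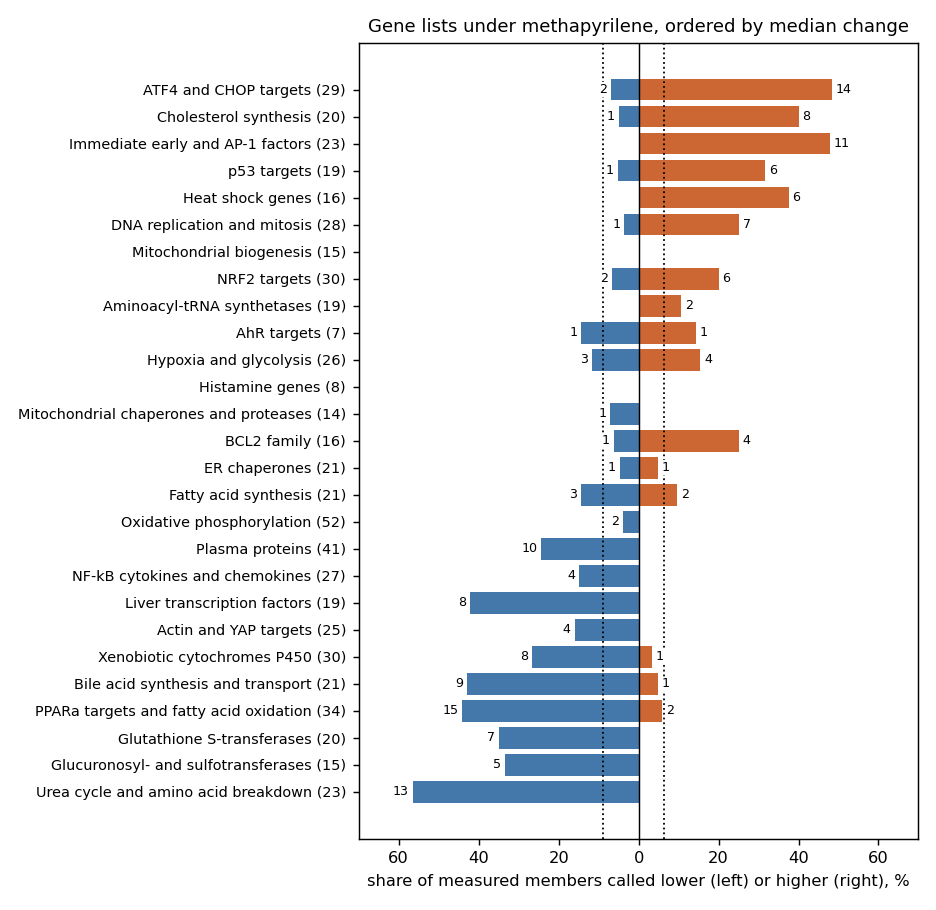
Share of the measured members of each list called lower (left) or higher (right) in percent, with the count at the end of each bar and the number measured after the name, ordered by median log2 change. Dotted lines mark the shares over all genes, 6.46% higher and 9.02% lower. The urea cycle and amino acid list has 13 falls and no rise, and the Atf4 and Ddit3 list 14 rises and 2 falls.

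Urea cycle and amino acid breakdown had the lowest median of all 27 lists, -0.84, with 13 falls in 23 genes and no rise. Cps1, the entry enzyme of the urea cycle, read 11.55, 11.09 and 11.06 in controls and 9.42, 9.25 and 8.92 in treated arrays at 0.67 d. At 1 d it read 11.46, 10.99 and 11.12 in controls and 9.01, 8.98 and 8.20 in treated arrays. Cps1 was lower in every treated array and fell to 0.210 of control (limma adjusted p = 4.75e-07). Otc, the next enzyme, fell to 0.239, and Cbs of homocysteine disposal to 0.235, while Ass1 (log2 change -0.01) and Asl (0.11) of the same cycle were not called. Arg1, Nags and the ornithine carrier Slc25a15 fell by log2 changes of 1.63, 1.13 and 1.23, and Tdo2 and Kmo of tryptophan breakdown by 1.60 and 1.23.

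Bile acid synthesis and transport had 9 falls and 1 rise in 21 genes (median -0.49). Baat, which joins bile acids to taurine or glycine, read 9.55, 9.74 and 9.55 in controls and 6.18, 6.19 and 5.80 in treated arrays at 0.67 d. Its values at 1 d were 10.16, 9.74 and 9.88 in controls and 6.09, 6.16 and 5.64 in treated arrays. It fell to 0.0739 of control (log2 change -3.76, SE 0.12), with the smallest adjusted p of any gene tested, 4.38e-09 (limma). The uptake carriers Slco1b2, Slco1a4 and Slc10a1 fell by log2 changes of 2.52, 1.21 and 1.11 and the export pump Abcb11 by 0.94. Akr1d1, a reductase of the pathway, fell to 0.396 of control. Abcb1a, a drug efflux pump, rose by 1.26, and Cyp7a1, the rate-limiting enzyme, changed by -0.11 and was not called.

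Among conjugating and oxidising drug enzymes more members fell than rose, and most were not called. Of 15 glucuronosyl- and sulfotransferases 5 fell and none rose (median -0.73). Sult1a1, a phenol sulfotransferase, read 10.98, 11.15 and 10.86 in controls and 8.02, 8.54 and 7.84 in treated arrays at 0.67 d. At 1 d it read 10.81, 10.74 and 10.81 in controls and 6.48, 7.57 and 6.81 in treated arrays. It fell to 0.0981 of control without overlap, Sult1b1 to 0.123 and Ugt2b10 to 0.162. Members of these families are close in sequence, so that probes may be shared in part.

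Of 30 cytochromes P450 and their partners 8 fell and 1 rose (median -0.37). Cyp2c12 fell to 0.121 of control, with log2 changes of -2.97, -3.13 and -1.69 within single hybridization days. The value of -2.97 sets a treated array at 0.67 d against a control at 1 d. Cyp2b3 fell to 0.178 of control, and Cyp1a1, a target of the Ah receptor, to 0.260 with overlapping arms. Cyp3a9 rose 3.72-fold, from 6.82 to 8.31 in controls to 8.76 to 10.07. Cyp2c11, linked to methapyrilene metabolism in rats, read 10.76, 11.38 and 10.60 in controls and 10.09, 10.69 and 10.14 in treated arrays at 0.67 d. At 1 d it read 10.54, 10.53 and 10.06 in controls and 9.07, 9.68 and 9.02 in treated arrays. The arms overlapped over both times but not at 1 d, and the gene fell to 0.550 of control (log2 change -0.86, limma adjusted p = 0.00175). The 7 Ah receptor targets had 1 rise, Tiparp at 1.89-fold, and 1 fall, Cyp1a1 (median 0.09).

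Liver transcription factors fell in 8 of 19 cases with no rise (median -0.26). Nr1i2, the pregnane X receptor, fell to 0.369 of control, from 7.67 to 8.02 to 6.01 to 6.80, and Nr5a2 to 0.475. Onecut1 fell to 0.317 with overlapping arms, and its call was lost when control replicate 1 at 0.67 d, control replicate 1 at 1 d or treated replicate 3 at 1 d was left out (log2 change -1.53, -1.55 and -1.46). Hnf4a, the factor that maintains hepatocyte identity, fell by a log2 change of 0.98, and Cebpa (0.55) was not called. Among 41 plasma protein genes 10 fell and none rose (median -0.19). Mbl2, mannose-binding lectin, fell by a log2 change of 3.31, from 10.57 to 11.01 to 7.05 to 8.08. Apob fell to 0.166, from 12.29 to 12.60 to 9.32 to 10.01, although its dim second probe set read -0.39, and the complement gene C5 fell to 0.241. Alb (0.03), Serpina1 (0.03) and Apoa1 (-0.19) were not called.

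Most hypoxia, actin and chemokine genes were not called. Over all genes 6.46% were called higher and 9.02% lower. Of 26 hypoxia and glycolysis genes 4 rose and 3 fell (median 0.06): Adm, a vasodilator peptide, rose 2.81-fold, while Fbp1 of gluconeogenesis fell to 0.271 and Pklr to 0.352 of control. Of 25 actin and YAP genes 4 fell and none rose (median -0.31): Mylk fell to 0.156 of control, Myl9 and Ankrd1 fell with overlapping arms, and the second probe set of Mylk read -0.59. The call of Ankrd1 was lost without any of 5 arrays, namely control replicate 2 at 1 d and treated replicates 2 and 3 at 0.67 d and 1 and 2 at 1 d, with log2 changes of -1.16 to -1.02. Of 27 NF-kB cytokines and chemokines 4 fell and none rose (median -0.22): Cxcl11 fell to 0.194, Cx3cl1 to 0.318 and Tnfaip2 to 0.401 of control, although another Tnfaip2 probe set read 0.03.

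None of 8 histamine genes was called (median -0.01, or 0.12 after subtracting array medians). Hrh1, the receptor that the drug blocks, read 4.30, 4.46 and 4.50 in controls and 4.45, 4.46 and 4.38 in treated arrays at 0.67 d. By 1 d it read 4.14, 4.35 and 4.53 in controls and 4.47, 4.24 and 4.21 in treated arrays. These are dim values that overlap, and the log2 change was -0.01 (SE 0.08, limma adjusted p = 0.958). Hdc and Hrh3, the members with the smallest p, changed by -0.32 and 0.17 on the log2 scale.

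The 12 largest rises and 12 largest falls among called genes lay partly outside these lists. Rhpn2 rose most, from 6.57, 6.50 and 6.03 in controls to 8.77, 9.43 and 9.17 at 0.67 d, and from 5.97, 6.29 and 5.53 to 8.87, 9.33 and 9.07 at 1 d. The arms did not overlap, and the rise was 7.77-fold (limma adjusted p = 6.92e-08). Sdcbp2, Klf5, Tcp11l2, Mmp3, Klhl21, Gadd45b and Emp1 rose 6.03, 5.91, 5.55, 5.10, 4.63, 4.25 and 4.24-fold, but the weakest probe sets of Klf5 and Klhl21 read 0.17 and 0.13. Mmp3, a matrix protease, was uneven: treated values ran from 5.31 to 8.68 and controls from 4.20 to 5.24.

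Nrep, a neuronal regeneration related protein, fell most, from 8.97, 8.96 and 9.08 in controls to 5.74, 5.04 and 5.02 at 0.67 d, and from 9.30, 9.20 and 9.62 to 5.61, 5.76 and 5.02 at 1 d. The arms were separate, and the level was 0.0707 of control (limma adjusted p = 8.79e-09). Gna14, a G protein subunit, fell to 0.103, Tm4sf4 to 0.104, Hjv, the hemojuvelin of iron sensing, to 0.111, Ifgga2l1 to 0.115, Bhmt2 of methionine metabolism to 0.118 and Anks4b to 0.122 of control. None of these 6 had overlapping arms.

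**Figure D3:**
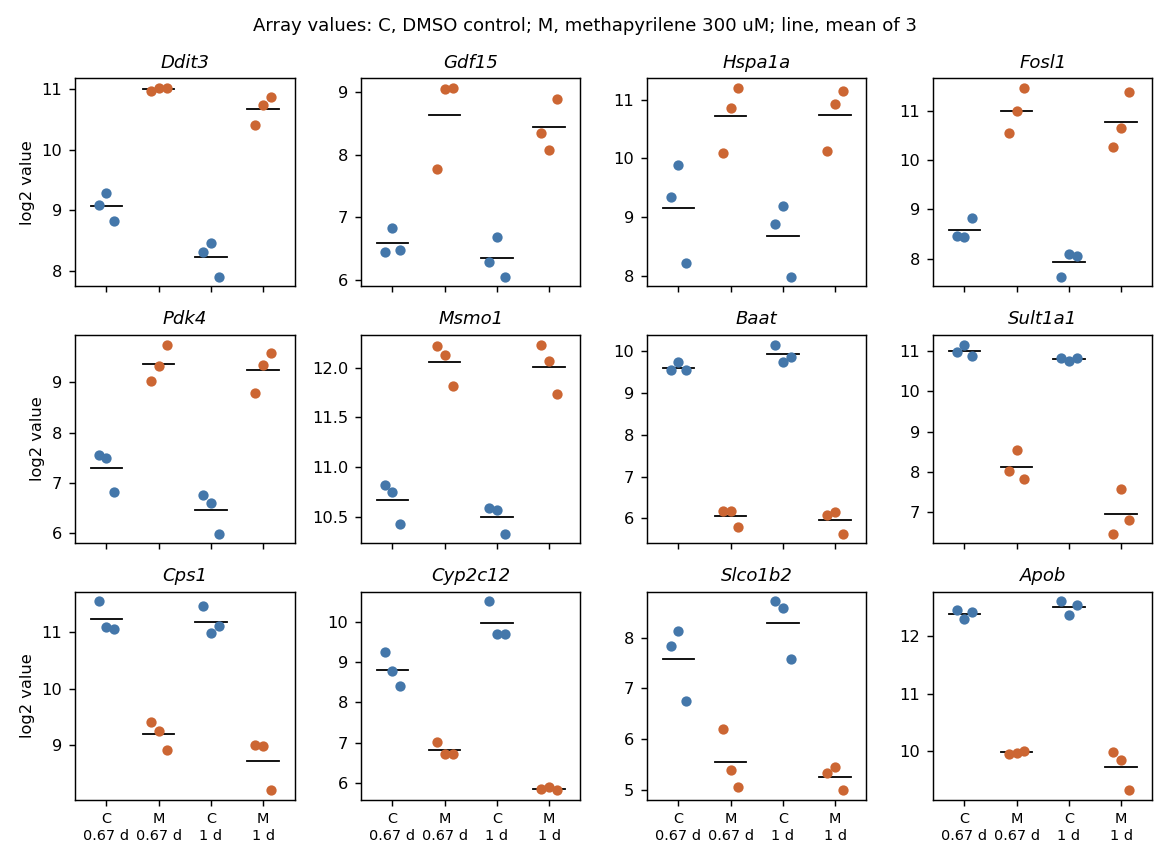
Log2 values of 12 genes in each array, with controls (C) and methapyrilene (M) at 0.67 d and 1 d and a line at the mean of 3 arrays. Each vertical axis has its own range. Treated points lie above controls for Ddit3, Gdf15, Hspa1a, Fosl1, Pdk4 and Msmo1 and below them for Baat, Sult1a1, Cps1, Cyp2c12, Slco1b2 and Apob.

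Exposure time was examined next. At 0.67 d 1659 genes were called (11.7% of genes tested), 688 higher and 971 lower, and at 1 d 2157 (15.2%), 1022 higher and 1135 lower. Subtracting array medians gave 1109 higher and 686 lower at 0.67 d, and 1380 higher and 929 lower at 1 d. The calls shared in the same direction numbered 1380, which is 83.2% of those at 0.67 d and 64% of those at 1 d, and none was called in opposite directions. The difference of the effects between the times passed an adjusted p of 0.05 for no gene (0% of genes tested, smallest limma adjusted p 0.165, 852 genes at an unadjusted p under 0.05). With replicate number as a block 8 genes passed, all lower at 1 d relative to 0.67 d. They were Cyp2c12, Cd24, Cyp2b3, LOC100910973, Cyp4f4, Car14, RGD1309362 and Hipk2. For Cyp2c12 the effect was -1.99 at 0.67 d and -4.10 at 1 d: controls read 9.25, 8.77 and 8.40 at 0.67 d and 10.50, 9.68 and 9.70 at 1 d, treated arrays 7.01, 6.71 and 6.71 at 0.67 d and 5.86, 5.89 and 5.82 at 1 d. The controls were higher and the treated arrays lower at 1 d than at 0.67 d. For Cd24, a surface glycoprotein of immature epithelium, controls were 4.81 to 5.38 at 0.67 d and 6.65 to 7.07 at 1 d, while treated arrays stayed between 4.51 and 5.10 throughout.

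A later study within the series tested the same dose at 1 d with 3 treated arrays and 3 controls of its own. The library labelled treated replicate 2 of that study went against its label: over all genes it correlated at 0.9976 with control replicate 2, at 0.9899 and 0.9922 with the other controls and at 0.9676 and 0.9771 with the other treated arrays. Of the 2157 genes called at 1 d in the first study, the difference between treated and control arrays of the same number had the same sign for 2149 (99.6%) in pair 1, 1018 (47.2%) in pair 2 and 2143 (99.4%) in pair 3. The median difference in the direction of the first call was 0.95, -0.01 and 0.81 on the log2 scale, against 0.85, 0.88 and 1.01 in the 3 pairs of the first study. The genes were called on those first-study arrays, so the values of the first study are no independent benchmark.

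With all arrays as labelled no gene was called in the later study (0% of genes tested, smallest limma adjusted p 0.149, 2988 genes at an unadjusted p under 0.05). Without the library labelled treated replicate 2, 1540 genes were called (10.8%), 766 higher and 774 lower. Of these, 1279 were called at 1 d in the first study in the same direction, which is 83.1% of the later and 59.3% of the first calls, and none in the opposite direction. The array was left out after its values were seen. The difference between studies passed an adjusted p of 0.05 for no gene (0% of genes tested, smallest limma adjusted p 0.998, 401 genes at an unadjusted p under 0.05), and without that array likewise for none (0.999, 361 genes).

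Baat illustrates the pairs. Treated arrays of the later study read 5.98, 9.78 and 6.41 and its controls 9.74, 9.91 and 9.96, so that replicate 2 alone lay in the range of the controls. Ddit3 read 10.33, 8.24 and 10.04 against 7.67, 8.48 and 7.92, and Fosl1 11.09, 7.68 and 10.24 against 6.47, 7.69 and 6.49. Without replicate 2 the log2 changes were -3.67, 2.16 and 3.78 for these genes, beside -3.96, 2.45 and 2.85 at 1 d in the first study.

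**Figure D4:**
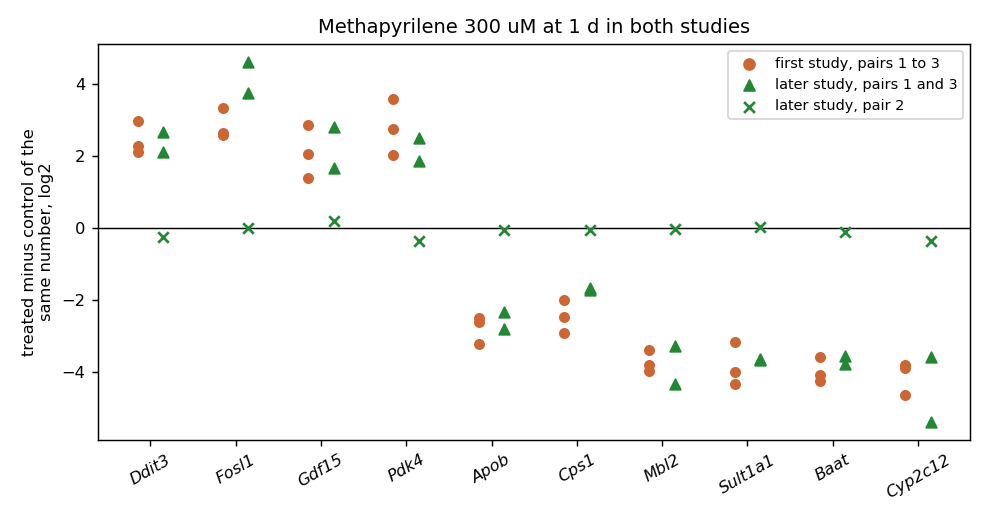
Treated minus control array of the same replicate number, in log2 units, for 10 genes at 300 uM and 1 d, with circles for the first study, triangles for pairs 1 and 3 of the later study and crosses for its pair 2. Triangles fall on the side of zero of the circles, and the crosses lie near zero, as for Baat at -0.12.

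Diphenhydramine, another H1 antihistamine, was tested at 263 uM at the same times, with 6 treated arrays and 8 DMSO controls of its own. It is an ether of benzhydrol with an aminoethanol side chain, whereas methapyrilene is an ethylenediamine that carries a thiophene and a pyridine ring. The doses differ, so that each difference below belongs to a compound at its dose. Diphenhydramine changed 1939 genes (13.6%), of which 1241 were called for methapyrilene in the same direction (64% of its calls and 56.4% of those of methapyrilene) and 4 genes in the opposite one. Of all genes tested, 15.5% were called for methapyrilene, 6.46% higher and 9.02% lower. The difference of the 2 effects was called for 165 genes higher under methapyrilene (1.16%) and 262 lower (1.84%), together 427, and for 671 with replicate number as a block, 388 of them shared. Subtracting array medians gave 235 higher and 211 lower. Leaving out single arrays of methapyrilene or its controls gave 313 to 479, the least without treated replicate 3 at 1 d.

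Integrated stress response genes responded to both drugs, and by the list median further to diphenhydramine. That drug raised 22 of 29 (median log2 change 1.16, against 0.48), beside 6.49% of all genes. The difference was called lower under methapyrilene for 11 members and higher for none, with a median of -0.60. The shares over all genes were 1.84% lower and 1.16% higher. Not all members followed this order: Gdf15 changed by 2.07 under methapyrilene and 1.39 under diphenhydramine, and Ppp1r15a by 1.96 and 1.75. Neither difference was called (0.69 and 0.21). Chac1, which degrades glutathione, changed by 0.48 under methapyrilene and 2.23 under diphenhydramine, Trib3 by 0.75 and 1.80, and Asns by 0.24 and 1.29. The difference for Ddit3, 2.20 against 2.59, was not called (-0.39, SE 0.31, limma adjusted p = 0.514). Cth fell under methapyrilene: it went from 9.76 to 10.43 in controls to 8.19 to 9.07, and under diphenhydramine it read 9.70 to 10.31 in treated arrays and 8.79 to 10.69 in controls, a log2 change of 0.54 that was not called. The difference for Cth was -1.83 (SE 0.29, limma adjusted p = 0.000273).

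Heat shock genes showed the opposite order, with 5 of 16 called higher under methapyrilene in the difference and none lower. List counts of the difference stand beside 1.16% higher and 1.84% lower over all genes. Diphenhydramine against its own controls raised 3 of the 16 and lowered 1 (median -0.16), and the rises included Hspb8 at 0.60. Hspa1a under diphenhydramine read 8.60, 8.80 and 7.08 at 0.67 d and 8.75, 8.45 and 7.50 at 1 d, within or below its controls of 7.95 to 9.44. The difference for Hspa1a was 2.43 (SE 0.47, limma adjusted p = 0.00146), and Hsph1, Dnajb1, Bag3 and Chordc1 were the others. Of 30 NRF2 targets 4 were called higher in the difference, Txnrd1, Pgd, Osgin1 and Abcc2, and none lower. Of 21 bile acid genes 3 were called lower, Akr1d1, Abcb11 and Abcb1a. Abcb11 changed by -0.94 under methapyrilene and by -0.01 under diphenhydramine, and Abcb1a by 1.26 and 2.50.

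Among called genes the largest differences higher under methapyrilene were Hspa1a, Cyp3a9 (1.68), Gadd45b (1.66) and Adm (1.54), and the largest lower Cd36 (-2.50), Rgn (-2.15), Cth and Smlr1 (-1.78). Cd36, a fatty acid transporter, fell from 5.55 to 7.55 in methapyrilene controls to 4.07 to 5.18 in treated arrays, while diphenhydramine arrays read 5.30 to 6.64 and their controls 4.72 to 5.93. Rgn, a calcium-binding protein, read 4.81 to 7.44 under methapyrilene and 7.59 to 8.97 in its controls, against 7.75 to 9.77 under diphenhydramine and 8.16 to 9.46 in the controls of that drug. Baat fell under both drugs, and its difference of -1.43 (SE 0.37, limma adjusted p = 0.014) missed the bound. Among 20 sterol synthesis genes and 20 glutathione S-transferases no difference was called, with medians of 0.05 and -0.03. Neither count shows that the drugs act alike.

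**Figure D5:**
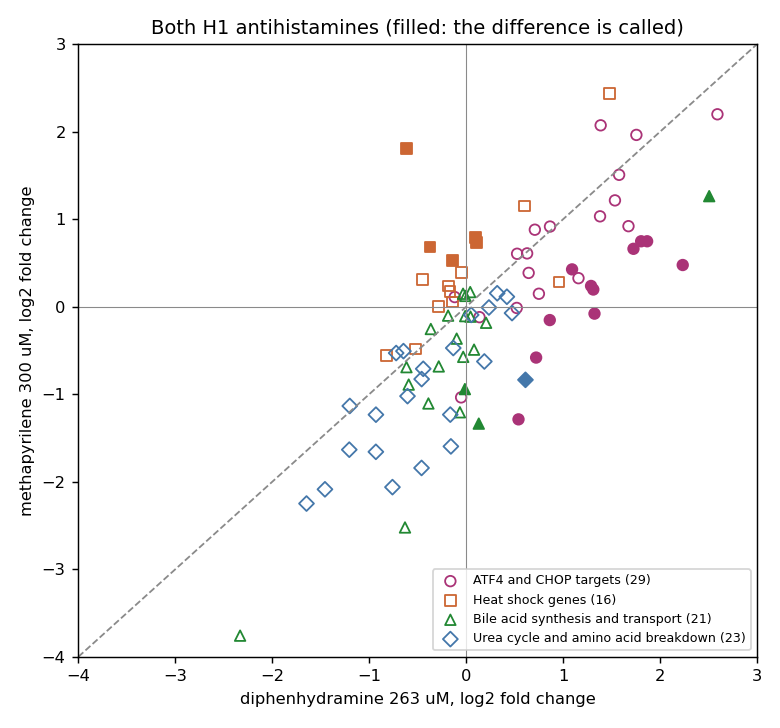
Log2 fold change of the members of 4 lists under methapyrilene at 300 uM (vertical) and diphenhydramine at 263 uM (horizontal), each against its own controls, with filled symbols where the difference between the effects was called and a dashed line of equal change. The 11 filled members of the Atf4 and Ddit3 list lie below the line and the 5 filled heat shock genes above it.

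N-Nitrosodiethylamine, an alkylating liver carcinogen that needs activation by cytochromes P450, was tested at 7000 uM with the same control set. Because the controls are shared, only treated arrays were compared, 6 against 6, at unequal doses. Methapyrilene arrays were higher for 817 genes (5.75%) and lower for 1071 (7.53%), and after subtraction of array medians higher for 1064 and lower for 863. Among called genes the largest differences higher under methapyrilene were Rhpn2 (3.28), Prnd (2.84), Il1rl1 (2.61) and Emp1 (2.57), and the largest lower Cyp1a1 (-4.19), Aldh1a1 (-3.91), Adam8 (-3.51) and Hjv (-3.41). Cyp1a1 read 8.46 to 10.21 in nitrosamine arrays and 4.44 to 6.42 in methapyrilene arrays, with 5.66 to 8.77 in the controls of both. Adam8, a metalloprotease, read 7.02 to 8.88 under the nitrosamine, 4.41 to 4.81 under methapyrilene and 4.50 to 5.43 in those controls.

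Of 19 p53 targets, 4 were called lower under methapyrilene than under the nitrosamine and none higher. The shares over all genes in that comparison were 7.53% lower and 5.75% higher. Mdm2 (0.26, SE 0.17, limma adjusted p = 0.259) and Bbc3 (-0.12) were not called in that comparison. The Atf4 and Ddit3 list had 12 of 29 higher and 1 lower, heat shock genes 6 of 16 higher and none lower, urea cycle and amino acid genes 13 of 23 lower and none higher, and PPARa and fatty acid oxidation genes 12 of 34 lower and 3 higher.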

How the data were processed

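RNA of primary rat hepatocytes was hybridized to Affymetrix rat arrays. The authors deposited 1 table of log2 values, made with RMA per the submitters' processing notes (version not given in the sources used here), for 31099 probe sets and 939 arrays; 38 arrays were used and the other 901 were not used here. Arrays have no read depth, and their number limits the precision. Of the probe sets, 20832 carry 1 symbol in the platform annotation, 436 several and 9831 none. Symbols were updated through RefSeq for 20819, and 13 kept theirs. A gene was represented by its probe set with the highest mean value (4526 genes had several), which left 14218 genes.

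Groups, times and replicate numbers came from the labels. Fits used limma 3.58.1 in R 4.3.3 with Benjamini-Hochberg adjustment over all genes, and were tested on simulated data first. Exposure time was a factor. Calls needed an adjusted p of 0.01 or less and 1.5-fold or more, and an adjusted p of 0.05 for differences between times and between studies. Named genes were the 12 largest called rises and 12 falls, up to 3 called members per list, or the 2 of smallest p where none was called, the 4 largest in each direction of the other comparisons, Hrh1 and Cyp2c11. Other members of lists are given where they show the range of a list, and were chosen after their values were seen. The members and lists were chosen with earlier results of these data known.

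The replicate numbers pair the samples: in the first study all 18 pairs of arrays that share a number deviated together from their group means (r 0.351 to 0.747). So did the 3 pairs of the later study (0.131 to 0.351) and the 19 of diphenhydramine (0.212 to 0.709). Pairs of different number reached -0.029, 0.090 and 0.231 in these sets, so the ranges overlapped for diphenhydramine. Subtracting the means of such small groups pushes the values of different numbers below 0, so they are no independent contrast. The group means of the later study include the library labelled treated replicate 2. Its control replicates 2 and 3 carry the same code in their titles, so its 3 pairs say little about pairing. Alternatives for every comparison were an ordinary linear model, array medians subtracted, a filter on low values, the replicate block, and each methapyrilene array and each of its controls in the comparison left out; arrays of diphenhydramine, its controls and N-Nitrosodiethylamine were not left out. The bounds, renewed quantile normalization, probe sets, and extraction and hybridization day were varied for the comparison over both times only. Alternatives for the lists, and the replicate pairs of the later study, were chosen after seeing the data. Promoters came from RefSeq.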

Additional observations from a re-analysis of the deposited data

Results flagged for a closer look

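With replicate number as a block, the effect of methapyrilene differed between 0.67 d and 1 d for 8 genes by the interaction test of limma, and without the block for none. The effect at 1 d minus that at 0.67 d on the log2 scale was -2.11 for Cyp2c12 (adjusted p = 0.00707), -1.68 for Cd24 (0.00151), -1.35 for Cyp2b3 (0.0227) and -1.34 for LOC100910973 (0.0105). It was -1.28 for Cyp4f4 (0.0475), -1.11 for Car14 (0.0227), -0.96 for RGD1309362 (0.0424) and -0.71 for Hipk2 (0.0242). Hipk2 was the gene without a fall at 0.67 d, with effects of 0.08 and -0.63, and for the other 7 the fall at 1 d exceeded that at 0.67 d. Changes in the controls contributed to some of these. For RGD1309362 controls read 5.61 to 6.12 at 0.67 d and 6.88 to 6.93 at 1 d, while treated arrays stayed at a dim 4.22 to 4.43, a pattern like that of Cd24. Controls of LOC100910973 also rose, from 9.86 to 9.93 at 0.67 d to 10.70 to 10.90 at 1 d. Without the block the adjusted p of Cyp2c12 and Cd24 was 0.165. Hybridization on days without any methapyrilene control applied to replicates 2 and 3 of the treated arrays at 1 d, and the part of those days in these differences was not tested.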

How the results depend on the processing

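The 2200 calls of methapyrilene against controls became 798 at a 2-fold bound and 2000 to 2318 under the other settings with all 12 arrays. Leaving out single arrays gave 2020 to 2290 calls over both times, 1316 to 1794 at 0.67 d and 1863 to 2191 at 1 d. The replicate block gave 2318, 2068 and 2543 calls, raised the interaction from 0 to 8 genes and the difference from diphenhydramine from 427 to 671, and left the later study at 0. Leaving out arrays gave 0 to 1 for the interaction, with the single call without treated replicate 3 at 1 d, 0 to 1540 for the later study, 313 to 479 for diphenhydramine and 1764 to 1954 for N-Nitrosodiethylamine. Of 96 named genes, 11 lost their call at the 2-fold bound and 6 in an ordinary linear model without moderation. Hrh1, never called, changed sign with array medians subtracted (0.12), with hybridization day as a random (0.017) or fixed (0.063) block, or with extraction day as a block (0.0083), and ranged from -0.049 to 0.039 with single arrays left out. The filter on low values left 92 named genes. Of the counts of members called in each direction over the lists, 14 moved by over 1.5 times with array medians subtracted, 5 with renewed quantile normalization, 5 with hybridization day as a block and 2 without treated replicate 2 at 1 d. The causes were not tested. The strength of signal over background limits dim genes such as Hrh1.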
